A study of Mus musculus with 12 samples.

Results

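The nuclear genes of the respiratory chain and ATP synthase outside complex IV were taken as the rows of the deposited count table whose symbol starts with Nduf, Sdha, Sdhb, Sdhc, Sdhd, Uqcr or Atp5, without pseudogene and antisense rows. The rule gave 79 of the 50508 rows. They comprised 36 subunits of complex I, 8 complex I assembly factors, 4 subunits and 4 assembly factors of complex II, 8 subunits of complex III, 15 subunits of complex V, the paralogs Ndufa4 and Ndufa4l2, and the Atp5-named genes Atp5s and Atp5sl. The rule used gene names alone and no measured value.

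Single cells were sorted into wells from LMMP tissue (longitudinal muscle with the attached myenteric plexus, the nerve net of the gut wall) of adult C57BL/6 mice. All sorted cells carried a red fluorescent label tied to Dclk1 (Dclk1-tdTom), the gene of a microtubule-binding kinase, and were split by surface CD49b, an integrin chain. The groups were CD49b+ cells, called glial in the labels, of irradiated and of homeostasis mice, and CD49b- cells, called neuronal, of the same irradiated and homeostasis mice. Each of the 4 groups had 3 plates of wells, each plate from a pool of 2 mice, so 6 mice stood behind each treatment. All mice, controls included, received 3 mg tamoxifen at 8 or 9 weeks of age, and tissue was collected 10 days later. Irradiated mice received 10.5 Gy 7 days after tamoxifen and were collected 3 days after irradiation. A CD49b+ and a CD49b- plate that carry the same replicate number share their pool. The cells are those that the Dclk1-tdTom label and the CD49b gate select, not all glia or neurons of the layer.

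The respiratory chain sits in the inner mitochondrial membrane. Complex I takes electrons from NADH and complex II from succinate, both pass them through coenzyme Q to complex III, and cytochrome c carries them to complex IV, while complexes I, III and IV pump protons. Complex V, the ATP synthase, lets the protons return through its c ring and makes ATP in its F1 head. Complexes I, III, IV and V combine subunits encoded in the nucleus with a few encoded in the mitochondrial genome, whereas all subunits of complex II are nuclear.

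The table held unnormalised UMI counts, 1 count per captured transcript molecule, for 1150 wells. Wells with 1000 or more UMIs and 500 or more genes were kept, 964 in all, and none of them exceeded 20% mitochondrial UMIs. A CD49b+ plate held 150561 to 243340 retained UMIs, a CD49b- plate 541729 to 746674. Median UMIs per retained well were 2110 to 2680 on CD49b+ and 5904.5 to 8335 on CD49b- plates. The sorted fractions carried the markers of their labels: 10 enteric glia markers summed to 25487 to 33599 CPM (UMI counts scaled to a common depth) on CD49b+ plates and 48.5 to 246 CPM on CD49b- plates, and 13 neuron markers to 326 to 1955 CPM on CD49b+ plates and 9099 to 10407 CPM on CD49b- plates. One well of irradiated CD49b+ replicate 1, 3 of irradiated CD49b+ replicate 2 and 2 of homeostasis CD49b- replicate 3 held more UMIs of the other fraction's marker list than of their own. Of the 96 well barcodes, 95 occurred on all 12 plates. Irradiated CD49b+ replicate 1 stood apart in the genes described here, so results that rest on it are given with and without it.

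Complex III could not be measured through the Uqcr genes that the naming rule takes. All 8 Uqcr rows (Uqcrb, Uqcrc1, Uqcrc2, Uqcrfs1, Uqcrh, Uqcrq, Uqcr10 and Uqcr11), which encode core and small subunits of the complex, were listed at 0 in all 1150 wells. So were all 339 symbols that start with U, among them the ubiquitin gene Ubb and the neuronal gene Uchl1, which listed 0 UMIs on CD49b- plates as well. For symbols that start with T, 67.4% of 1830 had at least 1 UMI, and for those that start with V, 22.4% of 697. A value of 0 in a U row is therefore a property of the table and is not read as a level, and the 8 genes enter no count below. The 71 other members all had UMIs, 83963 in retained wells for complex I subunits, 5785 for complex II subunits and 38411 for complex V subunits, and all 71 passed the filter on low counts.

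The promoters of 3 members are shown for the presence or absence of letters of the binding motif of NRF1, a transcription factor known to act on respiratory chain genes. Sdha (the catalytic subunit of complex II) and Ndufb4 (a complex I subunit) held 3 matches each, and Ndufa10, the complex I subunit furthest below its CD49b- level in CD49b+ cells, held none. Capitals mark the letters GCGCANGCG, the core of that motif. Each line runs 5' to 3' from 250 bases before to 50 bases after the RefSeq gene start on GRCm38.p6, so it spans upstream sequence and the start of the first exon.
Ndufb4 promoter, chr16:37654319-37654618, minus strand: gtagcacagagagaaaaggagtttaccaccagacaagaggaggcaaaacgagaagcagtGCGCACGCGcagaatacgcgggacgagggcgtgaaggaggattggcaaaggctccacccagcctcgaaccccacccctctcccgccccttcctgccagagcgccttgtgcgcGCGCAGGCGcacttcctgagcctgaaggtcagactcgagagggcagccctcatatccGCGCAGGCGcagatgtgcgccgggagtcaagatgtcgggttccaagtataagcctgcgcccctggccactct
Sdha promoter, chr13:74350191-74350490, minus strand: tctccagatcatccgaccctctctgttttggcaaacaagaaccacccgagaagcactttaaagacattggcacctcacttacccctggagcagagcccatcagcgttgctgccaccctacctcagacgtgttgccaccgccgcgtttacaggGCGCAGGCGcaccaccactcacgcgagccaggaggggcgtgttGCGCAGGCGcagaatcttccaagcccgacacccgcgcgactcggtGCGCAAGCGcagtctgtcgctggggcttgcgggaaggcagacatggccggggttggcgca
Ndufa10 promoter, chr1:92473709-92474008, minus strand: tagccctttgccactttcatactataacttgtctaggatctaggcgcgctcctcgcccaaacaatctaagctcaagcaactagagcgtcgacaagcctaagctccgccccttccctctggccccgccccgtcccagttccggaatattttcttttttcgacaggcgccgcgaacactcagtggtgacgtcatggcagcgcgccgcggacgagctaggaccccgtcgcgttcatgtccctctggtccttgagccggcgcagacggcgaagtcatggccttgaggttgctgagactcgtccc
RefSeq held windows of 300 bases for 68 of the 79 members, 74 windows in all. The letters GCGCANGCG, searched on both strands, were present in 24 of these 74 windows, or 32.4%, against 6.25% of the 32851 windows of all genes and 9.94% of the 19938 windows with at least 50% GC, which 69 of the 74 member windows also had. The motif of the zinc finger factor YY1, spelled AAGATGGCG, was present in 13.5% of member windows, against 1.40% of all windows and 2.11% of those with at least 50% GC. CCAAT, the NFY motif, was in 40.5% of member windows, against 37.4% and 35.05% of these backgrounds. GGGCGG, the SP1 motif, was in 45.9% of member windows, above the 35.7% of all windows and below the 55.4% of windows with at least 50% GC. CCGGAAGTG, an ETS motif, was in 2.70%, likewise between 2.03% and 3.07%. Both strands were searched and overlaps with the other motifs allowed. A match is a description of letters in this window and not a bound site. Of the tested members with a window, 16 of 47 called lower in CD49b+ cells and 5 of 16 not called held the NRF1 letters.

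The summed level of each measured complex was lower in CD49b+ than in CD49b- plates, with no overlap between the 6 plates of either fraction. Complex I subunits, which form the NADH dehydrogenase, made up 1.60%, 1.11% and 1.01% of the retained UMIs on irradiated and 1.25%, 1.01% and 1.12% on homeostasis CD49b+ plates, against 1.89%, 1.69% and 1.82% on irradiated and 1.83%, 1.68% and 1.73% on homeostasis CD49b- plates. The highest CD49b+ plate was irradiated replicate 1, which lay just under the lowest CD49b- plate, and the ratio of the mean level in CD49b+ to that in CD49b- plates was 0.688 after irradiation and 0.646 in homeostasis. Complex II subunits, the succinate dehydrogenase, made up 0.0861%, 0.0851% and 0.0598% on irradiated and 0.0752%, 0.0610% and 0.0652% on homeostasis CD49b+ plates, against 0.118%, 0.118% and 0.121% on irradiated and 0.132%, 0.124% and 0.132% on homeostasis CD49b- plates. Complex V subunits made up 0.608%, 0.522% and 0.436% on irradiated and 0.461%, 0.468% and 0.453% on homeostasis CD49b+ plates, against 0.814%, 0.797% and 0.866% on irradiated and 0.810%, 0.811% and 0.831% on homeostasis CD49b- plates. The ratio of mean levels was 0.647 for complex II and 0.632 for complex V after irradiation, and 0.520 and 0.564 in homeostasis.

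**Figure D1:**
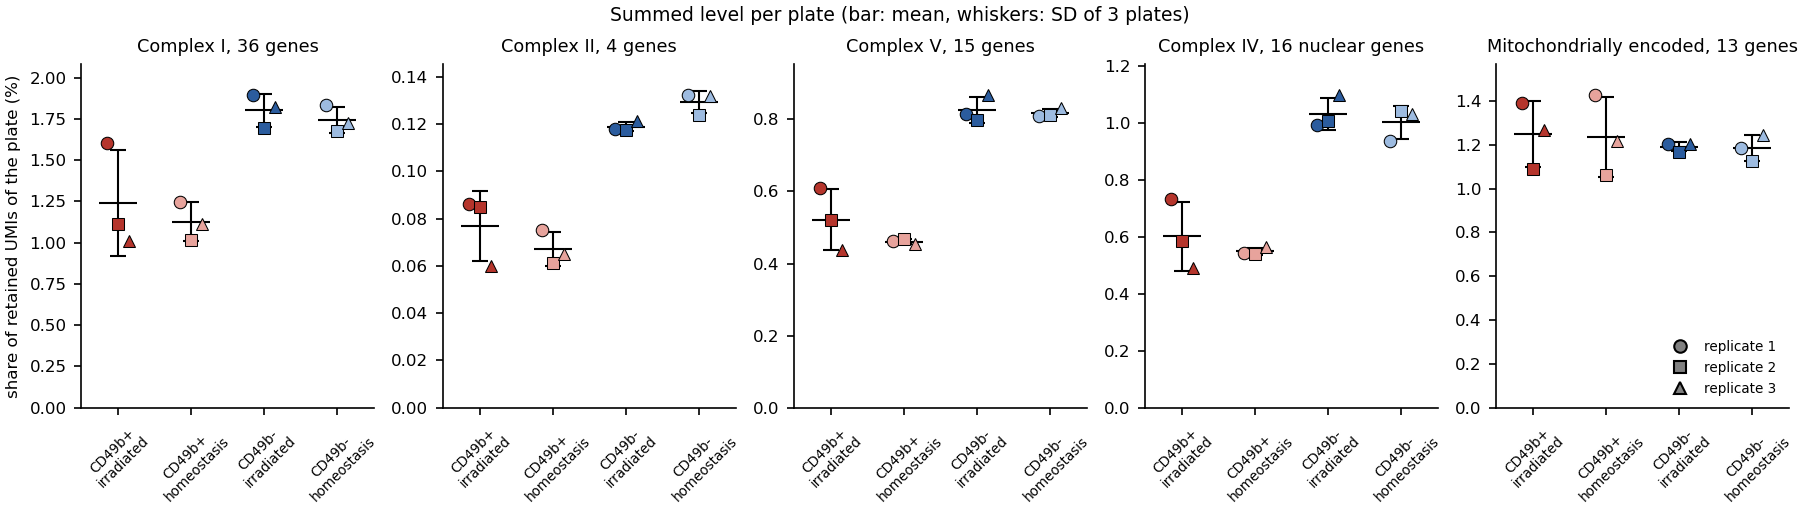
Share of the retained UMIs of each plate, in percent, taken by the subunits of complexes I, II and V, by nuclear complex IV genes and by mitochondrially encoded genes; each point is 1 plate, bars are means and whiskers the SD of 3 plates. The first 4 panels show CD49b+ plates below all CD49b- plates, while the mitochondrially encoded genes overlap between fractions.

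The transcripts of the mitochondrial genome overlapped between the fractions. The 13 mitochondrially encoded genes summed to 1.39%, 1.09% and 1.27% on irradiated and 1.43%, 1.06% and 1.22% on homeostasis CD49b+ plates, against 1.21%, 1.17% and 1.20% on irradiated and 1.18%, 1.12% and 1.24% on homeostasis CD49b- plates. Nuclear subunits of complexes I, II and V gave 1.65, 1.58 and 1.19 UMIs per mitochondrially encoded UMI on irradiated and 1.25, 1.45 and 1.34 on homeostasis CD49b+ plates, against 2.34, 2.24 and 2.34 on irradiated and 2.34, 2.32 and 2.16 on homeostasis CD49b- plates. The 16 nuclear complex IV genes were lower in CD49b+ plates too, with mean levels of 0.601% ± 0.122 on irradiated and 0.548% ± 0.0132 on homeostasis CD49b+ plates, against 1.03% ± 0.0557 and 1.002% ± 0.0582 on irradiated and homeostasis CD49b- plates (SD, n = 3 each).

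A CD49b+ well held far fewer of these molecules in absolute terms. Subunits of complexes I, II and V gave 49.7 ± 11.9 UMIs per well on irradiated and 40.3 ± 2.501 on homeostasis CD49b+ plates, against 205 ± 34.5 on irradiated and 207 ± 21.8 on homeostasis CD49b- plates (SD, n = 3 each), a ratio of 0.242 after irradiation and 0.194 in homeostasis. This count also carries the lower total of UMIs per CD49b+ well, and a smaller cell and a less complete capture cannot be told apart in it. Wells of like totals were set side by side as a description. Among CD49b+ wells the median share was 1.77% at 1000 to 2000 UMIs (86 wells), 1.70% at 2000 to 3000 (286 wells) and 1.63% at 3000 to 4000 (60 wells). CD49b- wells of the same totals had medians of 3.24% (5 wells), 2.90% (12 wells) and 2.60% (25 wells). By plate, the median well had 2.27%, 1.66% and 1.47% on irradiated and 1.82%, 1.54% and 1.65% on homeostasis CD49b+ plates, against 2.82%, 2.58% and 2.79% on irradiated and 2.72%, 2.61% and 2.67% on homeostasis CD49b- plates. Wells of 1 plate share their pool of mice, so these medians describe plates and were not tested over wells.

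**Figure D2:**
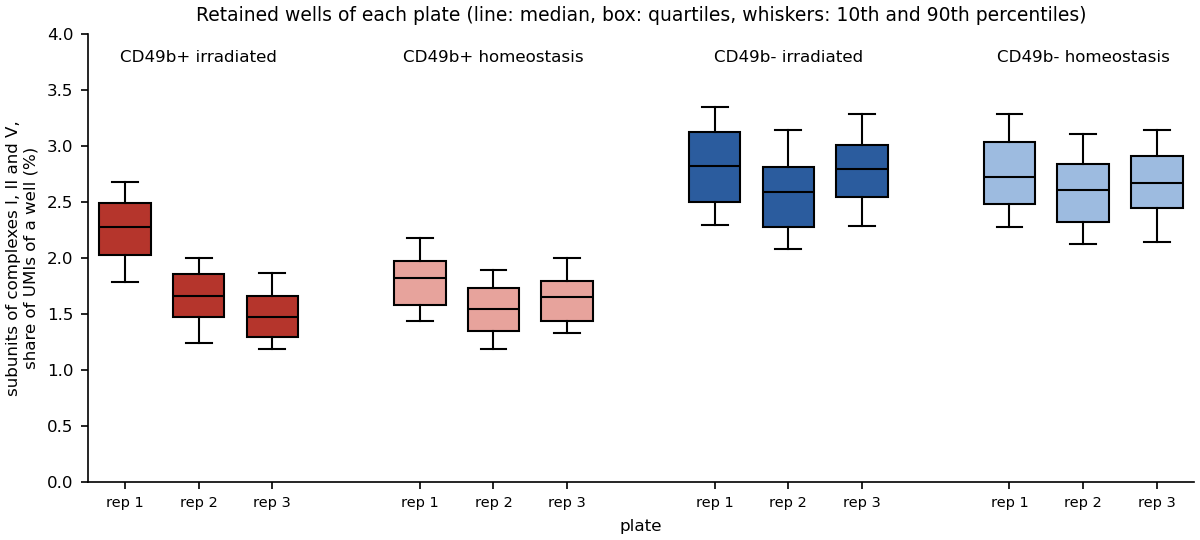
Share of the UMIs of a well, in percent, taken by subunits of complexes I, II and V, for the retained wells of each of the 12 plates; lines are medians, boxes quartiles and whiskers the 10th and 90th percentiles. Among CD49b+ plates irradiated replicate 1 is highest, with a median of 2.27%, and every CD49b- plate has a median of at least 2.58%.

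Gene by gene, 51 of the 71 tested members were lower in CD49b+ than in CD49b- plates and none was higher, averaged over the treatments (edgeR quasi-likelihood test, Benjamini-Hochberg adjusted p under 0.05 over 8555 genes). Of all 8555 genes, 32.4% were called lower and 29.6% higher. The median log2 fold change, CD49b+ over CD49b-, was -0.74 over the members and -0.13 over all genes. In homeostasis 43 members were lower, against 26.0% of all genes, and after irradiation 36, against 21.1% of all genes. None was higher in either, against 23.5% of all genes in homeostasis and 22.2% after irradiation. Without irradiated CD49b+ replicate 3 the count after irradiation was 21, against 14.5% of all genes in that setting. DESeq2 called 52 members lower and none higher. Ndufaf1 was the exception to the absence of higher members in 1 setting: without irradiated CD49b+ replicate 3, which listed it at 0, its log2 fold change was 0.73 with an adjusted p of 0.0454. In homeostasis 51 members had all 3 CD49b+ plates below all 3 CD49b- plates, against 32.6% of all genes, and after irradiation 47 did, against 27.9%. Levels below are CPM scaled by trimmed-mean-of-M-values (TMM) factors, in the order of replicates 1, 2 and 3, and differences are log2 fold changes ± SE.

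**Figure D3:**
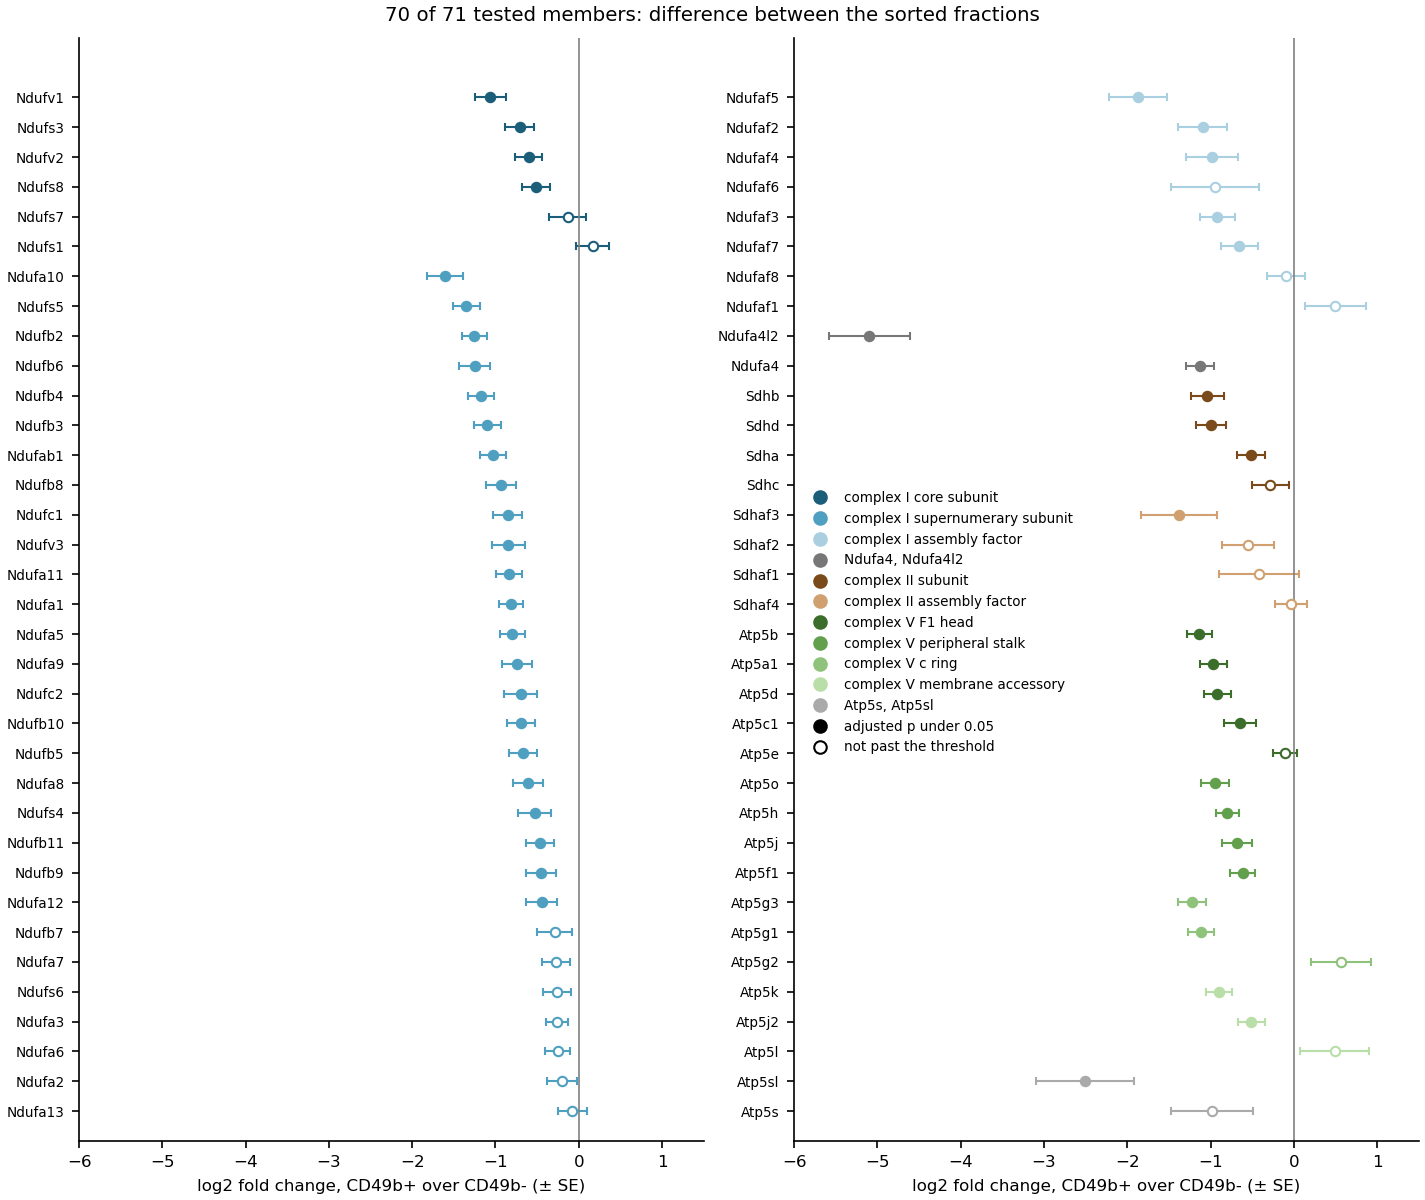
Log2 fold change, CD49b+ over CD49b- plates, with its SE for 70 of the 71 tested members (12 plates), coloured by role; filled points have an adjusted p under 0.05. Filled points all lie left of 0, at -0.45 and below, and Ndufa4l2 lies farthest left at -5.10.

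The core subunits of complex I carry the flavin and the iron-sulfur clusters, and Ndufv1, Ndufv2, Ndufs3 and Ndufs8 among them were lower. Ndufv1, which binds NADH and the flavin, had 158, 128 and 74.8 CPM on irradiated and 94.8, 83.2 and 107 CPM on homeostasis CD49b+ plates, against 218, 220 and 251 CPM on irradiated and 232, 214 and 214 CPM on homeostasis CD49b- plates. Its CD49b+ plates all lay below its CD49b- plates (log2 fold change -1.06 ± 0.184, edgeR adjusted p = 2.78e-05). Ndufv2, the partner of Ndufv1, fell by 0.60 on the log2 scale, Ndufs3 by 0.71 and Ndufs8 by 0.51. Ndufs1, the largest iron-sulfur subunit, had 90.9, 170 and 143 CPM on irradiated and 130, 111 and 123.4 CPM on homeostasis CD49b+ plates, against 108, 135 and 129 CPM on irradiated and 118, 78.6 and 119.4 CPM on homeostasis CD49b- plates. Its plates overlapped between the fractions, and its difference of 0.17 ± 0.198 did not pass the test (edgeR adjusted p = 0.478), nor did that of Ndufs7 at -0.13 ± 0.220.

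Of the 29 supernumerary subunits, which surround the core and are needed for assembly or stability, 22 were lower, against 32.4% of all genes. Their median log2 fold change was -0.70. The same share of all genes stands beside the Ndufb and Ndufa counts below. Ndufa10 (chr1:92439010-92473860, minus strand, GRCm38), a subunit of the matrix face of the membrane arm, had 97.0, 118 and 34.0 CPM on irradiated and 88.9, 66.6 and 53.6 CPM on homeostasis CD49b+ plates, against 226, 212 and 267 CPM on irradiated and 265, 217 and 227 CPM on homeostasis CD49b- plates. Its CD49b+ plates all lay below its CD49b- plates, with irradiated replicate 3 lowest, and its difference of -1.60 ± 0.217 was the lowest of the complex (edgeR adjusted p = 9.67e-07). Of the 10 Ndufb genes, which encode subunits of the far end of the membrane arm, 9 were lower, Ndufb2 by 1.25, Ndufb6 by 1.25 and Ndufb4 by 1.17, and only Ndufb7, at -0.29 ± 0.209, did not pass. For Ndufb6, 34.4% of the 31-base words of its transcripts also occur in transcripts of the overlapping gene Smim27, so its counts are uncertain. Of the 13 Ndufa genes of complex I, 8 were lower. Ndufa13, also known as the cell death gene Grim19, had 1503, 827 and 742 CPM on irradiated and 1049, 682 and 788 CPM on homeostasis CD49b+ plates, against 1150, 884 and 962 CPM on irradiated and 1012, 942 and 916 CPM on homeostasis CD49b- plates. These ranges overlapped and the difference was -0.08 ± 0.176 (edgeR adjusted p = 0.724). It shares 33.2% of its words with 3 other gene models, the overlapping Tssk6 among them, so its counts are uncertain. The others that did not pass were Ndufa2, Ndufa3, Ndufa6 and Ndufa7, at log2 fold changes of -0.20 to -0.27, and the zinc-binding Ndufs6 at -0.26.

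In complex II, 3 of 4 subunits were lower, against 32.4% of all genes. Sdhb, which holds the iron-sulfur clusters, had 545, 468 and 156 CPM on irradiated and 362, 250 and 295 CPM on homeostasis CD49b+ plates, against 700, 692 and 695 CPM on irradiated and 723, 699 and 739 CPM on homeostasis CD49b- plates. The 2 sets of 6 plates did not overlap, and irradiated CD49b+ replicate 1 was the highest CD49b+ plate (log2 fold change -1.04 ± 0.199, edgeR adjusted p = 9.52e-05). Sdha, the flavoprotein that oxidises succinate, had 176, 232 and 204 CPM on irradiated and 243, 139 and 166 CPM on homeostasis CD49b+ plates, against 278, 246 and 299 CPM on irradiated and 298, 248 and 293 CPM on homeostasis CD49b- plates. It was lower by a smaller amount, -0.52 ± 0.168 (edgeR adjusted p = 0.00991), and its lowest CD49b- plate was close to its highest CD49b+ plate. Of the membrane anchors, Sdhd was lower at -0.997 ± 0.181, while Sdhc at -0.28 ± 0.219 did not pass the test (edgeR adjusted p = 0.27).

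In complex V, 12 of 15 subunits were lower, against 32.4% of all genes. Among them were 4 of 5 subunits of the F1 head and all 4 of the peripheral stalk that holds the head in place. Atp5b, the catalytic beta subunit, had 454, 496 and 299 CPM on irradiated and 338, 333 and 359 CPM on homeostasis CD49b+ plates, against 725, 869 and 856 CPM on irradiated and 847, 888 and 815 CPM on homeostasis CD49b- plates. All CD49b+ plates lay below all CD49b- plates (log2 fold change -1.13 ± 0.154, edgeR adjusted p = 1.05e-06), and its partner alpha subunit Atp5a1 differed by -0.97 ± 0.162. Atp5e, the small epsilon subunit, did not pass at -0.11 ± 0.146. Stalk genes ranged from -0.94 for Atp5o, which links stalk and head, to -0.62 for Atp5f1, with Atp5j at -0.69 and Atp5h at -0.80. Atp5o shares 43.5% of its words with 3 other gene models, Gm15976 among them, so its counts are uncertain.

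The 3 c ring genes encode the same mature protein with different import sequences. Lower were 2 of the 3, against 32.4% of all genes. Atp5g3 had 242, 288 and 197 CPM on irradiated and 136, 289 and 215 CPM on homeostasis CD49b+ plates, against 533, 509 and 566 CPM on irradiated and 503, 567 and 526 CPM on homeostasis CD49b- plates. Homeostasis CD49b+ replicate 2 and irradiated replicate 2 were its highest CD49b+ plates, still below every CD49b- plate. Atp5g1 had 370, 444 and 279 CPM on irradiated and 267, 316 and 311 CPM on homeostasis CD49b+ plates, against 829, 682 and 714 CPM on irradiated and 684, 713 and 685 CPM on homeostasis CD49b- plates. Both were lower, by 1.22 and 1.11 on the log2 scale (edgeR adjusted p = 1.45e-06 and 1.22e-06). Atp5g2 had 24.2, 33.1 and 20.4 CPM on irradiated and 29.6, 61.0 and 21.5 CPM on homeostasis CD49b+ plates, against 18.7, 24.7 and 14.03 CPM on irradiated and 29.8, 21.7 and 18.7 CPM on homeostasis CD49b- plates. Its plates overlapped and its difference of 0.57 ± 0.361 did not pass (edgeR adjusted p = 0.175). Atp5g2 shares 40.2% of its 31-base words with 6 other gene models, Gm10175 and Gm10231 among them, so its counts are uncertain. Of the accessory subunits of the membrane part, Atp5k (subunit e) and Atp5j2 (subunit f) were lower at -0.89 ± 0.157 and -0.51 ± 0.165, while Atp5l (subunit g), with 91 UMIs in all wells, was at 0.49 ± 0.413 and did not pass.

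The paralogs Ndufa4 and Ndufa4l2 were both lower in CD49b+ plates. Ndufa4, first described in complex I and now assigned to complex IV, had 800, 539 and 401 CPM on irradiated and 575, 455 and 515 CPM on homeostasis CD49b+ plates, against 1229, 1138 and 1324 CPM on irradiated and 1156, 1116 and 1214 CPM on homeostasis CD49b- plates. All CD49b+ plates lay below all CD49b- plates (log2 fold change -1.13 ± 0.164, edgeR adjusted p = 2.8e-06). Ndufa4l2 (chr10:127514967-127517154, plus strand, GRCm38), known elsewhere as a hypoxia-induced relative of Ndufa4, had 1, 2 and 1 UMIs on irradiated and 0, 1 and 0 UMIs on homeostasis CD49b+ plates, against 75, 107 and 40 UMIs on irradiated and 105, 66 and 135 UMIs on homeostasis CD49b- plates. The CD49b+ plates thus held 5 UMIs in all and the CD49b- plates 528. Its fitted log2 fold change was -5.10 ± 0.486 (edgeR adjusted p = 3.76e-09), a value that depends on the small counts added in the fit. Scaled to all retained UMIs, the level in CD49b+ plates was 0.0618 of that in CD49b- plates after irradiation (exact 95% binomial counting interval 0.0167 to 0.161) and 0.0121 in homeostasis (0.000306 to 0.0680), where the numerator is 1 UMI. These intervals cover counting error only.

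Ndufa4l2 was spread unevenly over CD49b- cells. It was detected in 27 of 92, 38 of 89 and 13 of 85 wells on irradiated and in 31 of 93, 19 of 78 and 34 of 91 wells on homeostasis CD49b- plates, with up to 13 UMIs in 1 well. The tenth of wells with the most Ndufa4l2 held between 47.7% and 87.5% of its UMIs on a plate. In all, 4 of 436 CD49b+ wells had a UMI, or 0.917% (exact 95% interval 0.251% to 2.33%), against 162 of 528 CD49b- wells, or 30.7% (26.8% to 34.8%). These intervals pool wells and leave out the spread between plates, so they are too narrow for a fraction. By plate, detection in CD49b- wells ran from 15.3% (irradiated replicate 3) to 42.7% (irradiated replicate 2). Whether these few CD49b+ UMIs came from free RNA, from wells with more neuron markers or from CD49b+ cells themselves was not tested. With each well thinned to 1000 UMIs, Ndufa4l2 kept 0 and 1 UMIs on irradiated and homeostasis CD49b+ plates, against 38 and 51 on irradiated and homeostasis CD49b- plates.

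The assembly factors build the complexes but are not part of them. They were called lower in 5 of 8 cases for complex I and in 1 of 4 for complex II, against 32.4% of all genes. In homeostasis 2 of these 12 were lower, against 26.0% of all genes, and after irradiation 4, against 21.1%. The difference in share from the subunits was not tested. Ndufaf5, which modifies Ndufs7, had 18.2, 9.45 and 20.4 CPM on irradiated and 11.9, 16.6 and 5.36 CPM on homeostasis CD49b+ plates, against 41.4, 55.2 and 45.2 CPM on irradiated and 45.6, 46.8 and 57.5 CPM on homeostasis CD49b- plates (log2 fold change -1.87 ± 0.353, edgeR adjusted p = 7.95e-05). Its 2 sets of plates did not overlap. Ndufaf1, a chaperone of the membrane arm, had 48.5, 80.4 and 0 CPM on irradiated and 71.1, 49.9 and 59.0 CPM on homeostasis CD49b+ plates, against 45.6, 39.3 and 34.3 CPM on irradiated and 38.6, 16.7 and 48.9 CPM on homeostasis CD49b- plates. In homeostasis its 3 CD49b+ plates lay above its 3 CD49b- plates, the only member to do so, against 26.5% of all genes, but its irradiated replicate 3 was listed at 0 and the averaged difference of 0.50 ± 0.367 did not pass. Ndufaf2, Ndufaf3, Ndufaf4 and Ndufaf7 were lower at -1.10, -0.92, -0.98 and -0.65, while Ndufaf6 and Ndufaf8 did not pass at -0.94 ± 0.528 and -0.10 ± 0.227. Ndufaf2 shares 65.1% of its words with 212 other gene models, the overlapping B230220B15Rik among them. Among the subunits, Ndufb11 (29.0%), Ndufs5 (26.5%), Ndufs3 (25.4%) and Atp5h (25.4%) also share words with other gene models, so the counts of these 5 genes are uncertain. For complex II, Sdhaf3 was lower at -1.38 ± 0.458, and Sdhaf1, Sdhaf2 and Sdhaf4 did not pass at -0.42, -0.55 and -0.03. The mitochondrial proteins Atp5sl and Atp5s, both rare here, were at -2.51 ± 0.588 and -0.98 ± 0.490, of which the first passed.

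The surrounding pathway was read from short lists of genes grouped by function. Their counts stand against 32.4% of all genes called lower and 29.6% called higher. Of 12 tested nuclear complex IV genes, 11 were lower in CD49b+ plates, with a median log2 fold change of -0.91. Of 8 tested mitochondrially encoded genes, mt-Nd5 and mt-Nd6 were lower, at -0.45 and -0.93, none was higher, and the median was -0.02. Of 15 tested genes of the citric acid cycle and pyruvate dehydrogenase, which supply the NADH and succinate, 13 were lower and none higher, with a median of -1.27; Ogdh, the oxoglutarate dehydrogenase subunit, was at -2.35 ± 0.266, Mdh2, malate dehydrogenase, at -1.38 ± 0.172, and Idh3g at -0.13 did not pass. Of the complex III subunits outside the U rows, the nuclear Cyc1, cytochrome c1, was lower at -0.69 ± 0.186 (edgeR adjusted p = 0.00264).

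Among 14 electron carriers, shuttles and exchangers, 8 were lower and 2 higher. Of all genes 32.4% were lower and 29.6% higher, which also applies to the other counts of this paragraph. The ATP/ADP exchanger Slc25a4 was at -1.89 ± 0.194, the ATP synthase inhibitor Atpif1 at -1.86 ± 0.183 and cytochrome c (Cycs) at -1.33 ± 0.218. Both higher genes feed electrons into the coenzyme Q pool from elsewhere, Gpd2, the mitochondrial glycerol-3-phosphate dehydrogenase, at 2.21 ± 0.369 and Etfb, of the electron transfer flavoprotein, at 0.41 ± 0.168. Of 8 tested genes of coenzyme Q synthesis and handling, 5 were lower, Coq3 at -2.35 ± 0.427 among them, and the coenzyme Q carrier gene Coq10b was higher at 1.64 ± 0.25. Of 13 tested assembly factors outside the naming rule, 7 were lower and none higher, the complex I factor Ecsit at -1.93 ± 0.429 and the complex III factor Bcs1l at -1.91 ± 0.514. Of 19 regulators of mitochondrial biogenesis 2 were tested: Nrf1 was higher at 1.61 ± 0.408 (edgeR adjusted p = 0.0016), and Ssbp1 did not pass at 0.07 ± 0.187. The others had too few UMIs.

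**Figure D4:**
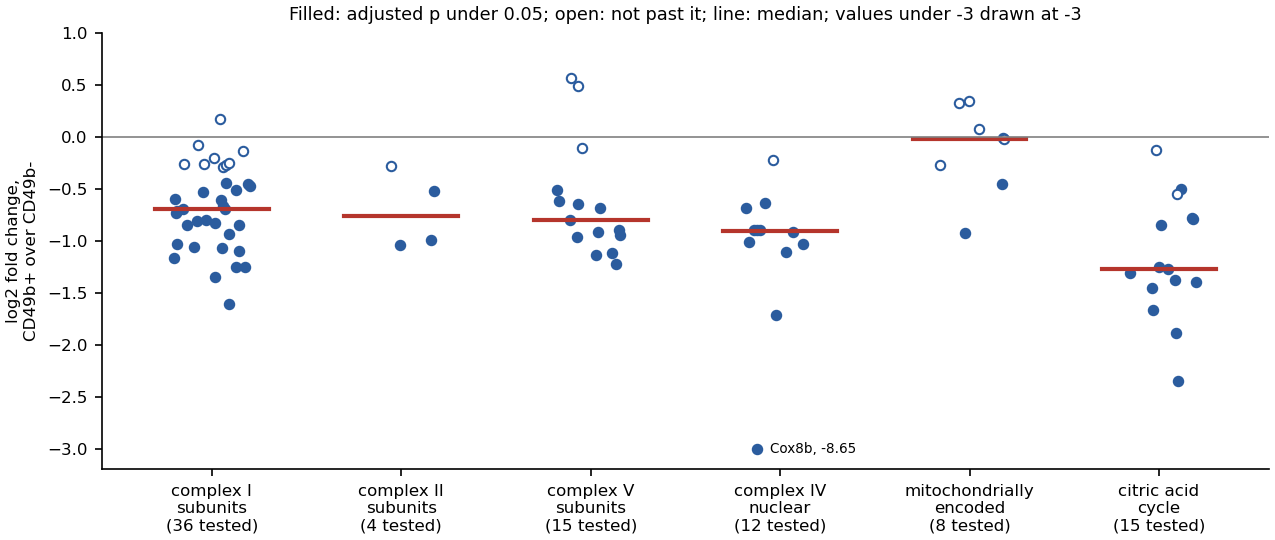
Log2 fold change, CD49b+ over CD49b- plates, of each tested gene (12 plates), for the subunits of complexes I, II and V and for 3 other lists; red lines are medians. The medians of the nuclear lists lie between -0.69 and -1.27, and that of the mitochondrially encoded genes at -0.02.

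None of the 71 members passed the test for irradiation in CD49b- cells (edgeR, adjusted p under 0.05), where 0.0468% of all genes, 4 of 8555, were called. None of the members had an unadjusted p under 0.05, against 4.14% of all genes, and DESeq2 called none. The log2 fold changes, irradiated over homeostasis, centred at 0.03, the middle 50% of members lay between -0.03 and 0.10, and the median SE was 0.233. All plates shared a dispersion estimate per gene, so this SE also carries the scatter of the CD49b+ plates. Complex I and complex V levels overlapped between the treatments, with ratios of mean levels, irradiated over homeostasis, of 1.03 and 1.01. Complex II was lower on all 3 irradiated plates than on all 3 homeostasis plates, as given above, with a ratio of 0.921. Its membrane anchor Sdhd had 193, 214 and 198 CPM on irradiated CD49b- plates, against 267, 266 and 240 CPM on homeostasis CD49b- plates. These do not overlap, but the difference of -0.35 ± 0.211 had an unadjusted p of 0.109 and an edgeR adjusted p of 1, the smallest p of the members. Sdhd was the only member with all irradiated plates lower, against 6.34% of all genes, and Atp5h, Ndufaf8 and Ndufs5 had all irradiated plates higher, against 6.45%.

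In CD49b+ cells none of the 71 members passed the test for irradiation either, where 0.713% of all genes, 61 of 8555, were called. Before adjustment 6 members had a p under 0.05 in edgeR and 5 in DESeq2, against 10.6% of all genes in edgeR, and DESeq2 called none after adjustment. The members leaned upward: 58 of 71 had a log2 fold change, irradiated over homeostasis, above 0, against 57.3% of all genes, and the median was 0.30, against 0.09 over all genes. This lean rested on irradiated replicate 1. Without that plate 41 of 71 were above 0, against 53.5% of all genes, the median was 0.09, against 0.06 over all genes, and no member had an unadjusted p under 0.05. Replicate 1 was the highest of the 6 CD49b+ plates for 36 of 71 members, against 23.1% of all genes. Without irradiated replicate 3, in contrast, the median was 0.45, against 0.11 over all genes, and 62 of 71 were above 0, against 56.4% of all genes. In that setting Ndufb6 was called higher, where 156 of 10759 genes were called in either direction. There 20 members had an unadjusted p under 0.05 in edgeR, for which no share over all genes was computed.

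**Figure D5:**
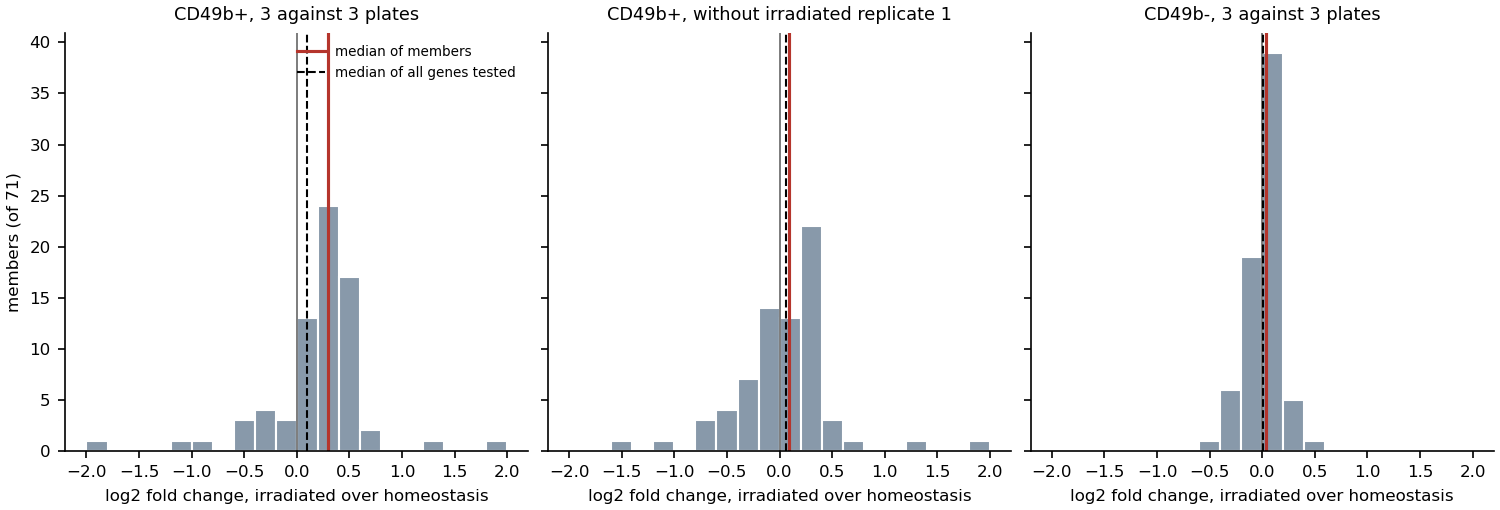
Distribution over the 71 tested members of the log2 fold change, irradiated over homeostasis, in CD49b+ plates, in CD49b+ plates without irradiated replicate 1 and in CD49b- plates; solid red lines are the members' medians and dashed lines those of all genes tested. The members' median of 0.30 in the first panel becomes 0.09 in the second, and it is 0.03 in the third.

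Other measures also differed on irradiated CD49b+ plates, the neuron marker list on replicates 1 and 2 only. The neuron marker list, 12 of whose 13 genes were detected (Uchl1 is a U row), summed to 1955, 1438 and 438 CPM on irradiated CD49b+ plates and to 326 to 504 CPM on homeostasis CD49b+ plates, where Ret and Chat were at 0. The glia list summed to 25487 to 27684 CPM on irradiated and to 30618 to 33599 CPM on homeostasis CD49b+ plates. Most of this sum was Apoe, at 22878 to 24813 CPM on irradiated and 27813 to 31085 CPM on homeostasis CD49b+ plates. The other glia markers did not move together. Gfap, for 1, was higher, at 639, 740 and 1289 CPM on irradiated against 436, 465 and 447 CPM on homeostasis CD49b+ plates. The lower sum is therefore not read as a fall of the glia markers as a list. The wells with more of the other fraction's markers, which occurred on irradiated CD49b+ replicates 1 and 2, held 13.4% and 15.4% of the UMIs of these plates. Without such wells the median of the 69 members tested was 0.20, against 0.02 over all genes, and 1 had an unadjusted p under 0.05. Without them and without replicate 1 it was 0.03, an alternative chosen after seeing the data. The well medians of replicate 1 lay high as a whole, with even its 10th percentile at 1.79%, near the highest median of the other CD49b+ plates, 1.82%. The part of these measures in the upward lean was not tested beyond these values.

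Grouped by the plate numbers in the labels into 3 sets of 4 plates, the first set alone held both treatments, replicate 1 of each. Between its plates complex I was at 1.60% on the irradiated and 1.25% on the homeostasis CD49b+ plate, and at 1.89% on the irradiated and 1.83% on the homeostasis CD49b- plate. With this set as a term of the fit, the median of the members was 0.38 in CD49b+ and 0.15 in CD49b- plates. The other sets held only irradiated or only homeostasis plates. The irradiation effect averaged over the fractions therefore came from the first set alone. That set includes irradiated CD49b+ replicate 1, so these medians cannot be read apart from that plate.

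The members nearest the threshold in CD49b+ cells were assembly factors and single subunits. Sdhaf4, a complex II assembly factor that binds Sdha, had 388, 170 and 225 CPM on irradiated CD49b+ plates, against 136, 139 and 177 CPM on homeostasis CD49b+ plates. Replicate 1 was far above the other irradiated plates, and the plates of the treatments overlapped (log2 fold change 0.77 ± 0.298, unadjusted p = 0.0158, edgeR adjusted p = 0.31). Without replicate 1 its difference was 0.34. Sdhaf1, which helps place the iron-sulfur clusters of Sdhb, had 0, 9.45 and 13.6 CPM on irradiated CD49b+ plates, against 17.8, 33.3 and 37.5 CPM on homeostasis CD49b+ plates, without overlap (-1.92 ± 0.812, edgeR adjusted p = 0.376). It was rare and shares 69.9% of its words with 7 other gene models, among them the antisense gene E130208F15Rik, from which its reads may not be told apart, since the strand setting of the counting is not given in the sources used here. Together 6 members had all irradiated CD49b+ plates higher, Atp5d, Atp5h, Ndufa1, Ndufa3, Ndufa4l2 and Ndufb2, against 6.72% of all genes, and Ndufaf7 and Sdhaf1 had all lower, against 4.21%.

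The effect of irradiation was not shown to differ between the fractions for any member. The interaction, the irradiation effect in CD49b+ minus that in CD49b- cells, called none of the 71 in edgeR or DESeq2, against 0.0117% of all genes in edgeR, and none had an unadjusted p under 0.05, against 7.59%. Sdhaf1 had the smallest p, with an interaction of -1.89 ± 0.950 (unadjusted p = 0.0582, edgeR adjusted p = 0.676). The median SE of the members was 0.268 for irradiation in CD49b+ cells and 0.362 for the interaction, so that differences of that size would not have been told from 0 with 3 plates a group.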

How the data were processed

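The deposited table held raw UMI counts per gene and well, with no normalisation by the authors, for single cells lysed and reverse transcribed in 96-well plates, with Nextera XT libraries per the labels' protocols. The builds GRCm38 and GRCh38 and the tools STAR (2.5.3a) and featureCounts (1.5.3) are named, per the submitters' processing notes, with no role for each; the strand setting and the collapsing of molecules are not given in the sources used here. The members and all lists were chosen with earlier results of these data known.

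Wells with at least 1000 UMIs and 500 genes were retained (964 of 1150), and their counts were summed per plate and tested with edgeR 4.0.16 (R 4.3.3): TMM factors, filterByExpr, 4 group means, quasi-likelihood tests, Benjamini-Hochberg adjustment over 8555 genes at 0.05. Contrasts took CD49b+ minus CD49b- plates (averaged and within each treatment), irradiated minus homeostasis within each fraction, and the interaction. P-values measure the spread between the plates of a group, which came from separate pools of mice. The plates of all groups shared a dispersion estimate per gene, so a p-value within a fraction also carries the scatter of the other fraction. The CD49b+ and the CD49b- plate of a pool entered the main fit without a pool term. The test was checked on simulated counts. Alternatives were DESeq2 1.42.0, other size factors, filters, thinned wells, terms for pool, age and plate set, and each plate left out. Plate sets follow the labels' plate numbers, whose meaning is not given.

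The mouse identifiers in the labels pair the CD49b+ and CD49b- plates of a pool. Their deviations from the group means correlated across 8555 genes at 0.184, 0.113 and -0.0336 for irradiated and 0.0971, 0.0431 and 0.0587 for homeostasis pools.

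Named members were, in each role, the one with the highest mean CPM and those with the lowest and highest gate fold change, any called against its complex or in an irradiation contrast (else the smallest p), a list of core and c ring subunits, and Ndufa4, Ndufa4l2 and unmeasured members. Some genes are not reported here by name. Further genes were named from the values seen, to fill the counts by role. Gene positions and shared 31-base words came from GENCODE vM21 (GRCm38), promoters from RefSeq (GRCm38.p6). Shares of counts have exact intervals for counting error only, and the depth of a plate limits rare members, such as those with 0 UMIs on a CD49b+ plate (6 of 71).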

Additional observations from a re-analysis of the deposited data

Results flagged for a closer look

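UMIs were also present in 5 of the 7 pseudogene rows that the naming rule left out, in data that the comparisons above do not use. Over all wells, Atp5k-ps2 had 1318 UMIs, Atp5l-ps1 had 275, Atp5l-ps2 had 558, Atp5l2-ps had 162 and Ndufab1-ps had 296. The parent gene Atp5k had 5083 UMIs and Ndufab1 had 2315, whereas Atp5l had 91, fewer than each of the 3 rows named after it. In retained wells the Atp5l-ps2 row was at 166 CPM on irradiated and 151 CPM on homeostasis CD49b+ plates, against 102 CPM on irradiated and 87.9 CPM on homeostasis CD49b- plates, each pooled over 3 plates and without a test. The Ndufab1-ps row was at 84.7 and 92.1 CPM on irradiated and homeostasis CD49b+ plates, against 44.3 and 53.7 CPM on irradiated and homeostasis CD49b- plates, while Ndufab1 itself was at 273 and 239 CPM against 501 and 510 CPM in the same 4 groups. How reads were shared between a gene and its copies was not tested.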

How the results depend on the processing

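No called result of a named member reversed its direction under the alternatives run. The other members were compared only through counts of calls, medians and summed levels. The count of members lower in CD49b+ plates was 51, where 32.4% of all genes were lower. It was 48 to 52 under DESeq2, other size factors, other filters and the age and plate set terms. With the pool of mice as a block it was again 51, all the same members, and the block ended 4 calls within a treatment: Atp5s in homeostasis (log2 fold change -1.90) and Atp5sl (-2.003), Sdhaf3 (-1.83) and Sdhd (-0.66) after irradiation, and no other call of a named member. With wells thinned to 1000 UMIs, where 56 members had enough counts to be tested, 32 members were lower on average, 24 in homeostasis and 19 after irradiation, against 32.1%, 25.6% and 23.7% of the 2386 genes tested there. Leaving out 1 plate at a time gave 45 to 56 lower and 0 to 1 higher members on average. It gave 37 to 46 lower in homeostasis and 21 to 43 after irradiation, and 0 to 1 members higher after irradiation in CD49b+ cells. After irradiation, 43, 31 and 21 members were lower without irradiated CD49b+ replicates 1, 2 and 3, against 18.7%, 17.4% and 14.5% of all genes. Both single higher members (Ndufaf1 between fractions, Ndufb6 for irradiation) came without irradiated CD49b+ replicate 3. Complex I after irradiation in CD49b+ plates had a log2 ratio of levels between -0.09 and 0.27 when 1 plate at a time was left out. The irradiation median in CD49b+ cells was 0.30, 0.17 with library size alone and 0.12 with thinned wells. The mitochondrial filter removed no well. The causes were not tested. The members' median SE for irradiation was 0.268 in CD49b+ plates, which held fewer UMIs, and 0.233 in CD49b- plates. The part of depth in this difference was not tested.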
